A study of Mus musculus with 8 samples.

Results

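IFITM proteins are small membrane proteins that interferons induce. They sit in the plasma membrane and in endosomes and lysosomes, where they hinder the fusion of enveloped viruses with the host membrane. Ifitm3 acts mainly in late endosomes and is the best known block to influenza virus entry. Ifitm2 is its close endosomal relative, and Ifitm1 lies mainly at the cell surface, where human IFITM1 associates with the tetraspanin CD81. Ifitm6 is a mouse relative known mostly from monocytes and neutrophils, and little is known of Ifitm10. Type I interferon reaches these genes through a receptor, JAK kinases and a STAT complex with Irf9 that binds the interferon-stimulated response element (ISRE). Interferon gamma acts through JAK and STAT proteins at the gamma-activated site (GAS).

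The 5 genes Ifitm1, Ifitm2, Ifitm3, Ifitm6 and Ifitm10 were taken by gene symbol from 55487 genes. The choice was made with results of these data known, and a difference between SRC-3KO and control Tregs of tumor-bearing mice was among them. The members were thus selected on measured values, the FPKM of Ifitm1 in that comparison among them, and the comparison is given below as a description, without a p-value for the members. The libraries are bulk RNA sequencing of splenic regulatory T cells (Tregs, CD4 T cells that restrain other immune cells) of C57BL/6 mice, made with SMART-Seq v4, a kit for full-length cDNA from little RNA. SRC-3, the product of Ncoa3, is a coactivator of nuclear receptors, and the study asked how Tregs lacking it differ from control Tregs.

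There were 8 libraries in 4 groups of 2. They were SRC-3KO Tregs and control Tregs of tumor-bearing mice, and SRC-3KO Tregs and control Tregs of mice without a tumor. All but 1 are labelled as GFP-positive cells. Both tumor-bearing controls and replicate 2 of the controls without a tumor are titled as Foxp3-Cre, whereas replicate 1 of the controls without a tumor is titled WT, and GFP is missing from its source label. Both SRC-3KO libraries without a tumor, and no others, carry the word Tam1 in their titles. The sources used here do not explain it, and if it marks a treatment, that treatment and the genotype cannot be told apart. The sources used here give neither the tumor model, the allele, ages or sexes, nor whether replicates came from separate animals. The p-values therefore measure only the spread between these libraries, which may be technical.

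The libraries without a tumor held 27452922 and 31075452 counts in SRC-3KO Tregs, against 25251597 and 24159217 in control Tregs. The tumor libraries were deposited as FPKM and their depth is unknown. Ncoa3 had 39.8 and 24.5 CPM (counts scaled to the library total) in SRC-3KO Tregs without a tumor, against 131 and 58.7 CPM in control Tregs, but 47.5 and 27.7 FPKM in SRC-3KO Tregs with a tumor, against 37.7 and 45.4 FPKM in control Tregs, where the groups overlapped. The sources used here do not name the exons that the knockout removes, so a value over the whole gene does not check the labels, and SRC-3KO below means the libraries so labelled. Foxp3, which defines Tregs, was detected in all 8 libraries. It had 20.1 and 28.8 FPKM in SRC-3KO Tregs with a tumor, against 18.4 and 14.7 FPKM in control Tregs, and 21.2 and 9.33 CPM in SRC-3KO Tregs without a tumor, against 230 and 22.3 CPM in control Tregs. Control libraries stood apart in both states. With a tumor, 12 neutrophil markers summed to 4135 FPKM in control replicate 2 and to 5.28 FPKM in control replicate 1. Without a tumor, they summed to 334 CPM in control replicate 2 and to 0.0792 CPM in control replicate 1, which in turn had counts for 23941 genes, against 15333 in control replicate 2. Each result on the members is therefore given with and without a control replicate where that moves it.

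On mm10, Ifitm2 lies on chromosome 7 at chr7:140954837-140955987 on the minus strand (ENSMUSG00000060591). Ifitm1 follows at chr7:140967221-140969825 on the plus strand (ENSMUSG00000025491), Ifitm3 at chr7:141009586-141010770 on the minus strand (ENSMUSG00000025492) and Ifitm6 at chr7:141015699-141017924 on the minus strand (ENSMUSG00000059108). Ifitm10, at chr7:142325837-142373753 on the minus strand (ENSMUSG00000045777), lies apart from this cluster, beside Ctsd. The coding sequences of the longest annotated forms are 321 bases in Ifitm1, 435 in Ifitm2, 414 in Ifitm3, 375 in Ifitm6 and 606 in Ifitm10. Ifitm1, Ifitm2 and Ifitm3 are near copies of each other, identical at 81.9% of aligned coding bases for Ifitm1 and Ifitm3, 81.6% for Ifitm1 and Ifitm2, and 80.8% for Ifitm2 and Ifitm3. Pairs that include Ifitm6 or Ifitm10 were identical at 65.9% to 69.6%. The longest exact runs that Ifitm3 shares with its neighbours are shown because a read that falls inside one cannot be given to a single gene. They are 69 bases with Ifitm2 and 64 bases with Ifitm1, and the stretch in capitals is common to all 3 genes.
Ifitm2 and Ifitm3 (coding bases 130 to 198 of Ifitm2): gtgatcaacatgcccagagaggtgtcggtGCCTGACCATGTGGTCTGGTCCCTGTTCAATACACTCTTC
Ifitm1 and Ifitm3 (coding bases 96 to 159 of Ifitm1): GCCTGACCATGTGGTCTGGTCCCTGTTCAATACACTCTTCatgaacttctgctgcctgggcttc
The shared stretch of 40 bases is the longest that Ifitm1 and Ifitm2 have in common.

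The sequences before the starts of Ifitm1, Ifitm2 and Ifitm3 are shown because these 3 neighbours differed from each other across the libraries. They are the 250 bases before the start of the RefSeq gene (GRCm38.p6), read 5′ to 3′ on the gene's strand, with matches to the ISRE (GAAANNGAAA) or the GAS (TTCNNNGAA) in capitals. These RefSeq starts lie inside the GENCODE genes, downstream of the first annotated base of each. Both strands were searched, from 250 bases before to 50 bases after each start.
Ifitm1, chr7:140967826-140968075, plus strand: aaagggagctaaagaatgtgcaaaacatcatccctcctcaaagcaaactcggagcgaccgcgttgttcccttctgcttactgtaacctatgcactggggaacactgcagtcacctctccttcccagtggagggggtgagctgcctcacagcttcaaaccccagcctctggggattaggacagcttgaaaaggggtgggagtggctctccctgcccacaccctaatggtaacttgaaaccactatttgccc
Ifitm2, chr7:140955962-140956211, minus strand: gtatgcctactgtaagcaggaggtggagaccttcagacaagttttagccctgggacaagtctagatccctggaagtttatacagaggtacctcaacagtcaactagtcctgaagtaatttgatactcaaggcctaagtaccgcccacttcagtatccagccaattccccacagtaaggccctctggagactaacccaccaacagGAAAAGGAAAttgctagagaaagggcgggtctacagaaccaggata
Ifitm3, chr7:141010745-141010994, minus strand: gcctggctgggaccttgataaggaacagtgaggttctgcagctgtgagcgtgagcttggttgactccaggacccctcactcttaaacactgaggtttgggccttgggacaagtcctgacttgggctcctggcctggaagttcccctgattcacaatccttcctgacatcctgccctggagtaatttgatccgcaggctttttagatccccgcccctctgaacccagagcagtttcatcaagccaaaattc
Ifitm3, chr7:141010715-141010743, minus strand, just after the start: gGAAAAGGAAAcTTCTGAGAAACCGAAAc
The window of Ifitm2 held 1 ISRE match. That of Ifitm3 held 2 ISRE matches and 1 GAS match within these 29 bases after the start, the GAS match overlapping the second ISRE match, and none in the 250 bases before it. That of Ifitm1 held none, that of Ifitm6 held 1 GAS match (TTCCTTGAA), and the windows of Ifitm10 held none. Over 32851 windows of the same length, 3.44% held an ISRE match and 8.30% a GAS match. Among other interferon-stimulated genes with a window, 10 of 20 held an ISRE match and 5 of 20 a GAS match. Here a gene counted if any of its windows held a match, so these shares are not on the basis of single windows. A match describes the letters in the window and is not a binding site.

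In tumor-bearing mice the 3 neighbours differed from each other (the plot of IFITM levels by library). Ifitm1 was at or near 0 in both SRC-3KO libraries and present in both controls, Ifitm3 was low but present in both SRC-3KO libraries and higher in both controls, and Ifitm2 lay between the 2 controls. Values here are FPKM (fragments scaled to transcript length and library depth), which compare levels between genes. Fold changes are on the log2(FPKM + 1) scale, SRC-3KO minus control, from limma, and understate the change of genes with low values.

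Ifitm1 had 0.0365 and 0 FPKM in SRC-3KO Tregs, against 12.5 and 17.5 FPKM in control Tregs. The SRC-3KO libraries were both lower than the controls, by a log2 difference of -3.96 (SE 0.26), and the controls differed from each other by 1.40 times. Ifitm1 passed the filter on low values through its control libraries alone. Over all 12859 genes tested, limma called 12 lower in SRC-3KO Tregs at an adjusted p under 0.05 (0.0933%) and 2 higher (0.0156%). After TPM scaling it called 2 lower and 2 higher, and with no filter on low values 0 lower and 1 higher. The difference of Ifitm1 was -6.99 with a pseudocount of 0.1 and -4.91 after TPM scaling. The family was chosen with this difference known, so no call is read for its members. In bulk RNA, fewer cells of a type that holds a transcript and less of the transcript per cell cannot be told apart, here or below.

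Ifitm3 had 1.21 and 1.19 FPKM in SRC-3KO Tregs, against 19.0 and 405 FPKM in control Tregs. The groups did not overlap, with the lower control 15.7 times the higher SRC-3KO library, and the controls differed by 21.3 times. The log2 difference was -5.36 (SE 1.34), -3.18 without control replicate 2, -7.53 without control replicate 1 and -6.08 with a pseudocount of 0.1. Both SRC-3KO libraries were below both controls for Ifitm1 and Ifitm3, as they were for 24.9% of the genes tested.

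Ifitm2 had 47.5 and 42.6 FPKM in SRC-3KO Tregs, against 31.3 and 128 FPKM in control Tregs. The SRC-3KO values lay between the 2 controls, and the log2 difference of -0.49 (SE 0.63) took the other sign without control replicate 2, at 0.51, and was -1.49 without control replicate 1. Ifitm2 stood above 90.0% and 89.2% of the protein-coding genes with a value in the SRC-3KO libraries, against 82.4% and 96.4% in the controls. Ifitm3 stood above 32.4% and 33.1% of them in the SRC-3KO libraries, against 74.6% and 99.3% in the controls.

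Ifitm6 had 0.0662 and 0 FPKM in SRC-3KO Tregs, against 0 and 13.3 FPKM in control Tregs. It was above 0.1 FPKM in control replicate 2 alone, the library with the neutrophil markers, and did not reach the filter of 1 FPKM in 2 libraries. Ifitm10 had 0.000198 and 0.0147 FPKM in SRC-3KO Tregs, against 0 and 0.0276 FPKM in control Tregs, and was not tested either. Of the 5 members, 3 were thus tested in this state.

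**Figure D1:**
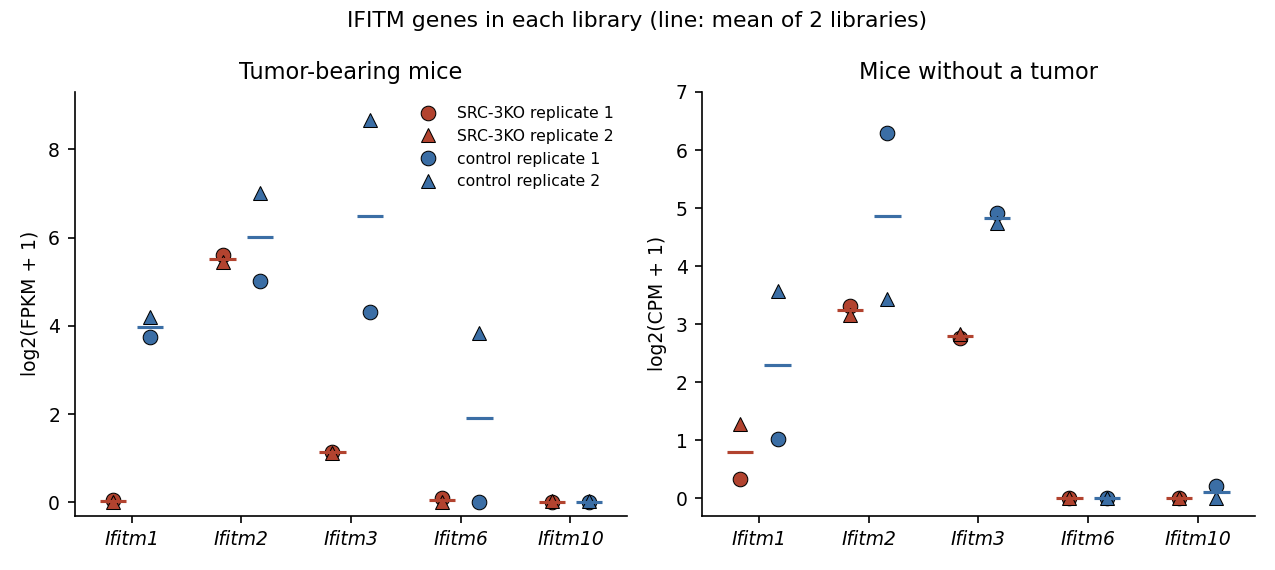
Level of each IFITM gene in each library, as log2(FPKM + 1) with a tumor (left) and log2(CPM + 1) without a tumor (right). Red marks SRC-3KO and blue control, circles replicate 1 and triangles replicate 2, and lines the mean of 2 libraries. With a tumor, Ifitm1 and Ifitm3 lie below either control in both SRC-3KO libraries, while Ifitm2 lies between the controls. Without a tumor, Ifitm3 has the widest gap between the groups, where the lower control was 4.20 times the higher SRC-3KO library.

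In mice without a tumor, each SRC-3KO library again had less Ifitm3 than either control, and this comparison used other libraries, a count table and edgeR's quasi-likelihood test. No member passed it at an adjusted p under 0.05, and no gene did, with 0.0% of 14860 genes called. At an unadjusted p under 0.05 there were 472 genes, 3.18% of those tested, and DESeq2 called 87 genes, none of them a member.

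Ifitm3 had 159 and 190 counts in SRC-3KO Tregs, against 736 and 620 counts in control Tregs, or 5.79 and 6.11 CPM in SRC-3KO Tregs and 29.1 and 25.7 CPM in control Tregs. Replicates were close within each group and the groups did not overlap, the lower control being 4.20 times the higher SRC-3KO library. The log2 fold change was -2.09 (SE 0.79), with an unadjusted p of 0.0387 and an adjusted p of 0.910 by edgeR. Leaving out control replicate 1 gave -2.03 with an adjusted p of 0.123, and leaving out control replicate 2 gave -2.26 with an adjusted p of 0.00970, in edgeR fits that take the lone control to vary like the SRC-3KO pair. Over all alternatives the adjusted p ran from 0.00970 to 0.999997, and without control replicate 2 edgeR called 7434 genes in all.

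Ifitm2 had 245 and 247 counts in SRC-3KO Tregs, against 1953 and 237 counts in control Tregs, or 8.92 and 7.95 CPM in SRC-3KO Tregs and 77.3 and 9.81 CPM in control Tregs. Per library total, both SRC-3KO libraries were just below the lower control and far below control replicate 1, the library titled WT. The log2 fold change was -2.30 (SE 1.15, adjusted p 0.910 by edgeR), but -0.15 without control replicate 1 and -3.16 without control replicate 2, with adjusted p of 0.873 and 0.00263 in a range of 0.00263 to 0.999997 over all alternatives, and it was -1.59 by limma-voom. Ifitm2 and Ifitm3 were the tested members, 2 of 3, with both SRC-3KO libraries below both controls, which held for 21.0% of all genes tested.

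Ifitm1 had 7 and 44 counts in SRC-3KO Tregs, against 26 and 262 counts in control Tregs, or 0.255 and 1.42 CPM in SRC-3KO Tregs and 1.03 and 10.8 CPM in control Tregs. The groups overlapped, since SRC-3KO replicate 2 was above control replicate 1, and control replicate 2 was the highest library. The exact 95% Poisson interval was 0.103 to 0.525 CPM for SRC-3KO replicate 1 and 9.57 to 12.2 CPM for control replicate 2, which covers counting error only. The log2 fold change was -2.61 (SE 1.67, adjusted p 0.910 by edgeR), -0.25 without control replicate 2 and -3.59 without control replicate 1, and it was -4.39 without SRC-3KO replicate 2 and -1.76 without SRC-3KO replicate 1.

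Ifitm6 had 0 counts in all 4 libraries, which allows up to 0.109 and 0.0965 CPM in SRC-3KO Tregs and 0.119 and 0.124 CPM in control Tregs (3 counts). Ifitm10 had 0 and 0 counts in SRC-3KO Tregs, against 4 and 0 counts in control Tregs. Neither was detectable at a level that could be compared.

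Across the states, Ifitm3 was the tested member with both SRC-3KO libraries below both controls with and without a tumor. Ifitm1 was so with a tumor, where it was at or near 0 in SRC-3KO Tregs. Ifitm2 was so without one, but there its Poisson intervals in SRC-3KO Tregs overlapped that of control replicate 2. The same held for 24.9% of all genes tested with a tumor and 21.0% without. The share of genes for which it held in both states was not computed, and the family was chosen with the tumor comparison known. Whether a difference was larger in either state was not tested, since the states were deposited as separate tables in different units.

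The make-up of the IFITM transcripts differed with these levels (the plot of shares by library). Shares are of the summed level of the 5 genes per length, in FPKM with a tumor and in CPM per kilobase of exon without one. With a tumor, Ifitm2 made up 97.3% and 97.2% of the sum in SRC-3KO Tregs, against 49.8% and 22.7% in control Tregs. The remainder was almost all Ifitm3 in SRC-3KO Tregs, at 2.49% and 2.72%, against 30.3% and 71.9% in control Tregs. The share of Ifitm1 was 0.0749% and 0% in SRC-3KO Tregs, against 19.9% and 3.11% in control Tregs. The summed level itself was 48.8 and 43.8 FPKM in SRC-3KO Tregs, against 62.8 and 564 FPKM in control Tregs. Control replicate 1 was therefore close to the SRC-3KO libraries in its sum and unlike them in its make-up.

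Without a tumor, Ifitm2 made up 60.8% and 54.1% in SRC-3KO Tregs, against 72.9% and 23.9% in control Tregs, so the groups overlapped. Ifitm3 made up 38.1% and 40.2% in SRC-3KO Tregs, against 26.5% and 60.3% in control Tregs, which overlapped as well. The sums did not, at 22.4 and 22.4 CPM per kilobase in SRC-3KO Tregs, against 162 and 62.7 in control Tregs. The ratio of Ifitm3 to Ifitm2 was 0.627 and 0.743 in SRC-3KO Tregs without a tumor, against 0.364 and 2.53 in control Tregs. With a tumor this ratio was 0.0256 and 0.0279 in SRC-3KO Tregs, against 0.607 and 3.17 in control Tregs. Reads that Ifitm2 shares with an overlapping gene may be placed differently in each state's table (below), so ratios and shares are not compared between states.

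**Figure D2:**
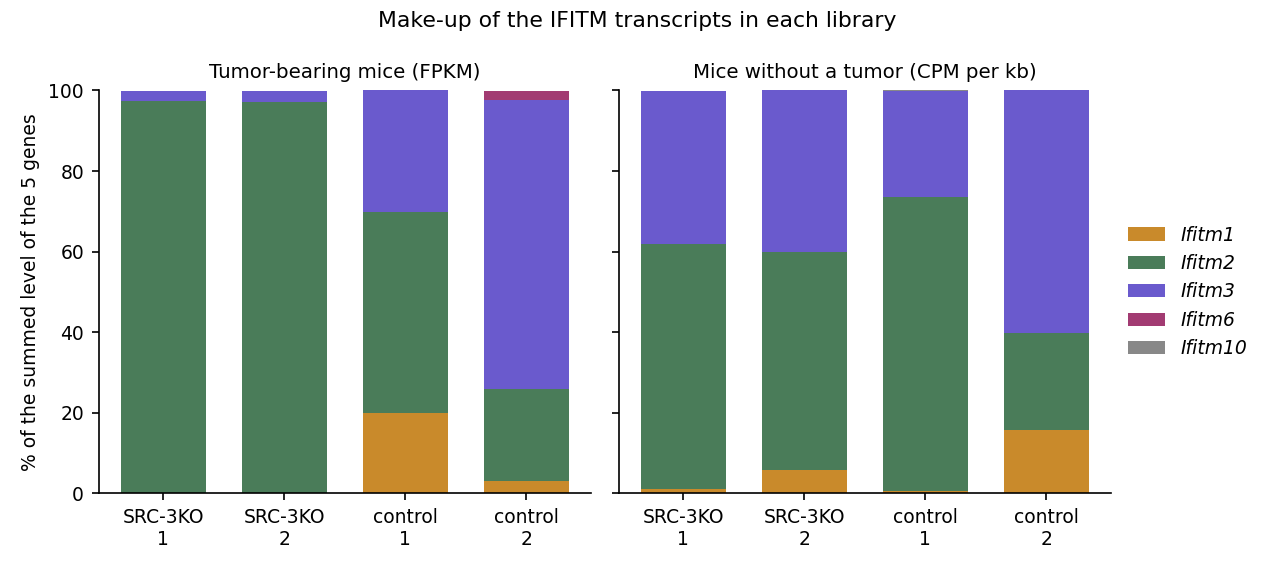
Share of each IFITM gene in the summed level of the 5 genes per length (percent), by library, with a tumor (left, FPKM) and without (right, CPM per kilobase). SRC-3KO libraries stand left of controls in each panel. With a tumor the SRC-3KO bars are nearly all Ifitm2, at 97.3% and 97.2%, while the controls hold 49.8% and 22.7%.

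Ifitm2 is the member whose reads are hardest to place. Of its 50-base stretches, 48.5% occur in some other annotated gene, against 10.0% in Ifitm3, 5.02% in Ifitm1, 3.51% in Ifitm10 and 0% in Ifitm6. Most are in Gm45717, a predicted protein-coding gene at chr7:140949222-140955937 on the same strand, whose exons cover 268 of the 655 exonic bases of Ifitm2. The sources used here do not say how reads on bases shared by overlapping genes were counted.

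Gm45717 had 0 counts in all 4 libraries without a tumor, but 37.5 and 33.0 FPKM in SRC-3KO Tregs with a tumor, against 24.2 and 99.3 FPKM in control Tregs. Its FPKM was between 0.773 and 0.791 times that of Ifitm2 in every tumor library, and it was the gene nearest to Ifitm2 in profile. Summed, the 2 genes had 85.0 and 75.5 FPKM in SRC-3KO Tregs, against 55.5 and 227 FPKM in control Tregs, a log2 difference of -0.48 (a setting chosen after seeing the data). Gm49369, which shares 215 exonic bases with Ifitm10 and overlaps Ctsd, likewise had 0 counts in all 4 libraries without a tumor. It had 85.4 and 76.2 FPKM in SRC-3KO Tregs with a tumor, against 101 and 384 FPKM in control Tregs, near the 89.7 and 79.1 FPKM of Ctsd in SRC-3KO Tregs, against 105 and 404 FPKM in control Tregs. Processed pseudogenes also carry copies of Ifitm2, on other chromosomes or elsewhere on chromosome 7. Gm11951, which shares 14.9% of the 50-base stretches of Ifitm2, had 39 and 13 counts in SRC-3KO Tregs, against 316 and 20 counts in control Tregs. Gm45308 had 3 and 20 counts in SRC-3KO Tregs, against 96 and 10 counts in control Tregs. In both, control replicate 1 was highest, as it was for Ifitm2, and how far such reads moved between copies was not tested.

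With a tumor, the tested genes around the cluster had smaller differences than Ifitm1 and Ifitm3 (the map of fold changes along the chromosome). Within 150 kb of the start of Ifitm1 there are 29 annotated genes, 25 of them not members. With a tumor, 12 of these passed the filter, and none was called. Of the 12, 2 had both SRC-3KO libraries below both controls and 5 above both, shares to be read beside 24.9% and 27.5% of all genes, and their log2 differences ran from -0.47 to 0.71 with a median of 0.25. The lowest was that of Gm45717, which overlaps Ifitm2. Pgghg, the nearest tested protein-coding gene outside the cluster, had 7.99 and 7.90 FPKM in SRC-3KO Tregs, against 4.70 and 6.42 FPKM in control Tregs. B4galnt4 on the other side had 3.37 and 3.99 FPKM in SRC-3KO Tregs, against 2.04 and 1.69 FPKM in control Tregs.

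Without a tumor, 11 of the 25 were tested and none was called, with log2 fold changes from -2.32 to 1.74 and a median of -0.37. Of the 11, 1 had both SRC-3KO libraries below both controls and 3 above both, beside 21.0% and 18.3% of all genes. Of a list of 16 genes near the cluster or, like Ctsd, near Ifitm10, 11 were tested in each state and none was called. Some of them, such as Pgghg and B4galnt4, also lie in the window above. Their median log2 fold change was 0.21 with a tumor and -0.67 without, where the median of all genes was -0.02 in both. The direction without a tumor turned with the control used. Against control replicate 1 alone, 9 of the 11 had both SRC-3KO libraries lower and 2 higher, beside 46.7% and 44.0% of all genes. Against control replicate 2 alone, 2 had both lower and 5 higher, beside 42.2% and 37.1%. Phrf1 had 15.6 and 16.1 FPKM in SRC-3KO Tregs with a tumor, against 4.71 and 8.84 FPKM in control Tregs. Irf7, an interferon regulatory factor that lies among these neighbours, had 7.02 and 5.46 FPKM in SRC-3KO Tregs, against 3.26 and 66.3 FPKM in control Tregs.

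**Figure D3:**
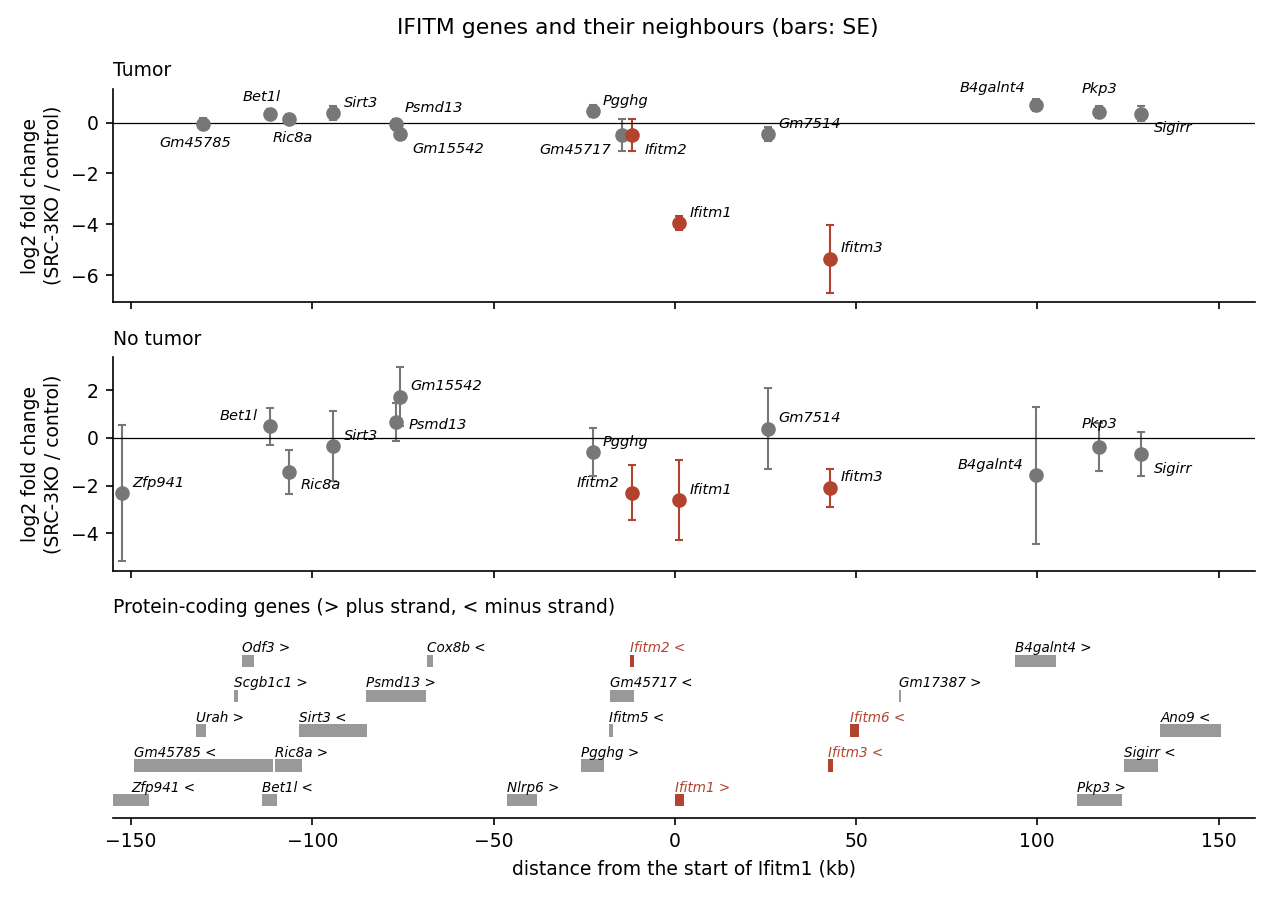
Log2 fold change of SRC-3KO over control (y axis, with SE bars) of tested genes by distance in kb from the start of Ifitm1, with a tumor (top, limma) and without (middle, edgeR), above a map of protein-coding genes (bottom). IFITM genes are red. With a tumor, Ifitm1 at -3.96 and Ifitm3 at -5.36 lie below neighbours that run from -0.47 to 0.71. The lowest neighbour, Gm45717, overlaps Ifitm2, which lies beside it at -0.49.

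Other members of the wider family were at low levels. Ifitm5, the bone-restricted IFITM gene next to Ifitm2, had 7 and 0 counts in SRC-3KO Tregs without a tumor, against 2 and 0 counts in control Tregs. Of 9 relatives with the same membrane domain, 2 were tested without a tumor and 0 with one. Prrt1, a synaptic membrane protein, had 0.401 and 0.483 CPM in SRC-3KO Tregs, against 6.30 and 1.03 CPM in control Tregs. Tmem91 had 0 and 1.16 CPM in SRC-3KO Tregs, against 1.94 and 3.73 CPM in control Tregs. Neither was called.

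Other interferon-stimulated genes lay on the same side as the IFITM genes with a tumor, where control replicate 2 was the highest library for most, and on the other side without one (the plot of gene lists). With a tumor, 23 of 29 such genes were tested and none was called. There were 12 with both SRC-3KO libraries below both controls and 1 with both above, beside 24.9% and 27.5% of all genes, and their median log2 difference was -1.02, against -0.02 over all genes. Control replicate 2, with its neutrophil markers, had the highest level in 22 of the 23. Against control replicate 1 alone, both SRC-3KO libraries were lower in 12 of the 23 and higher in 9, beside 46.6% and 39.7% of all genes, and the median difference in log2(FPKM + 1) was -0.26 (a setting chosen after seeing the data). Isg20, an RNA exonuclease, had 10.2 and 7.56 FPKM in SRC-3KO Tregs, against 20.3 and 31.8 FPKM in control Tregs. Usp18, which removes ISG15 from proteins and damps the interferon receptor, had 22.8 and 35.4 FPKM in SRC-3KO Tregs, against 60.0 and 95.1 FPKM in control Tregs. Sp100, a nuclear body protein, had 20.9 and 18.6 FPKM in SRC-3KO Tregs, against 35.8 and 38.5 FPKM in control Tregs. Their log2 differences were -1.43, -1.38 and -0.88, with adjusted p of 0.156, 0.172 and 0.156 by limma.

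Without a tumor, 24 of the 29 were tested and none was called, and the direction was the other way from that of the IFITM genes. There were 13 with both SRC-3KO libraries above both controls and 0 with both below, beside 18.3% and 21.0% of all genes, with a median log2 fold change of 1.32. Usp18 had 33.3 and 57.5 CPM in SRC-3KO Tregs, against 4.24 and 17.1 CPM in control Tregs. Oas1a, an oligoadenylate synthetase, had 7.83 and 5.73 CPM in SRC-3KO Tregs, against 1.31 and 1.32 CPM in control Tregs. Sp100 had 337 and 241 CPM in SRC-3KO Tregs, against 63.5 and 134 CPM in control Tregs. Their log2 fold changes were 2.26, 2.47 and 1.68, each with an adjusted p of 0.910 by edgeR. Control replicate 1 had the lowest level in 17 of the 24, whereas it had the highest of Ifitm2. Against control replicate 2 alone, both SRC-3KO libraries were higher in 15 of the 24 and lower in 2, beside 37.1% and 42.2% of all genes.

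Among 15 other restriction factors, host proteins that hinder viruses, 10 were tested with a tumor and 11 without, and none was called. With a tumor 4 of 10 had both SRC-3KO libraries below both controls and 2 above, beside 24.9% and 27.5% of all genes. Without one 2 of 11 were below and 3 above, beside 21.0% and 18.3%. Their median log2 fold change was -0.27 with a tumor and -0.11 without. Apobec3, a cytidine deaminase, had 89.8 and 110 FPKM in SRC-3KO Tregs with a tumor, against 65.3 and 57.5 FPKM in control Tregs. Ncoa7, which acidifies endosomes, had 58.4 and 60.6 CPM in SRC-3KO Tregs without a tumor, against 10.6 and 21.9 CPM in control Tregs. Samhd1, which depletes nucleotides, had 125 and 118 FPKM in SRC-3KO Tregs with a tumor, against 160 and 291 FPKM in control Tregs.

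All 11 genes of the interferon receptors and their JAK and STAT signal were tested in both states, and none was called. With a tumor 1 of 11 had both SRC-3KO libraries below both controls and 2 above, beside 24.9% and 27.5% of all genes, and the median log2 fold change was 0.15. Without one 3 of 11 were below and 4 above, beside 21.0% and 18.3%, and the median was 0.41. Tyk2, a kinase of the type I receptor, had 22.5 and 21.8 FPKM in SRC-3KO Tregs with a tumor, against 11.7 and 15.2 FPKM in control Tregs. Stat2 had 8.71 and 4.92 CPM in SRC-3KO Tregs without a tumor, against 23.3 and 17.9 CPM in control Tregs. The 7 interferon regulatory factors had a median of -0.40 with a tumor and -0.41 without, with 0 calls. Irf8, a factor of myeloid and B cells, had 98.2 and 108 FPKM in SRC-3KO Tregs with a tumor, against 177 and 210 FPKM in control Tregs. Irf5 had 1.89 and 1.48 CPM in SRC-3KO Tregs without a tumor, against 55.8 and 8.24 CPM in control Tregs.

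The 7 brakes on interferon signalling, which include Usp18, had medians of -0.26 with a tumor and -0.18 without, with 0 calls. Of 9 interferon genes, Ifng was the one tested, with 7.57 and 6.22 FPKM in SRC-3KO Tregs with a tumor, against 7.57 and 9.37 FPKM in control Tregs. Without a tumor Ifng had 6.30 and 8.56 CPM in SRC-3KO Tregs, against 16.6 and 14.4 CPM in control Tregs. Both SRC-3KO libraries were below both controls in this state, with a log2 fold change of -0.93 (adjusted p 0.910 by edgeR).

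**Figure D4:**
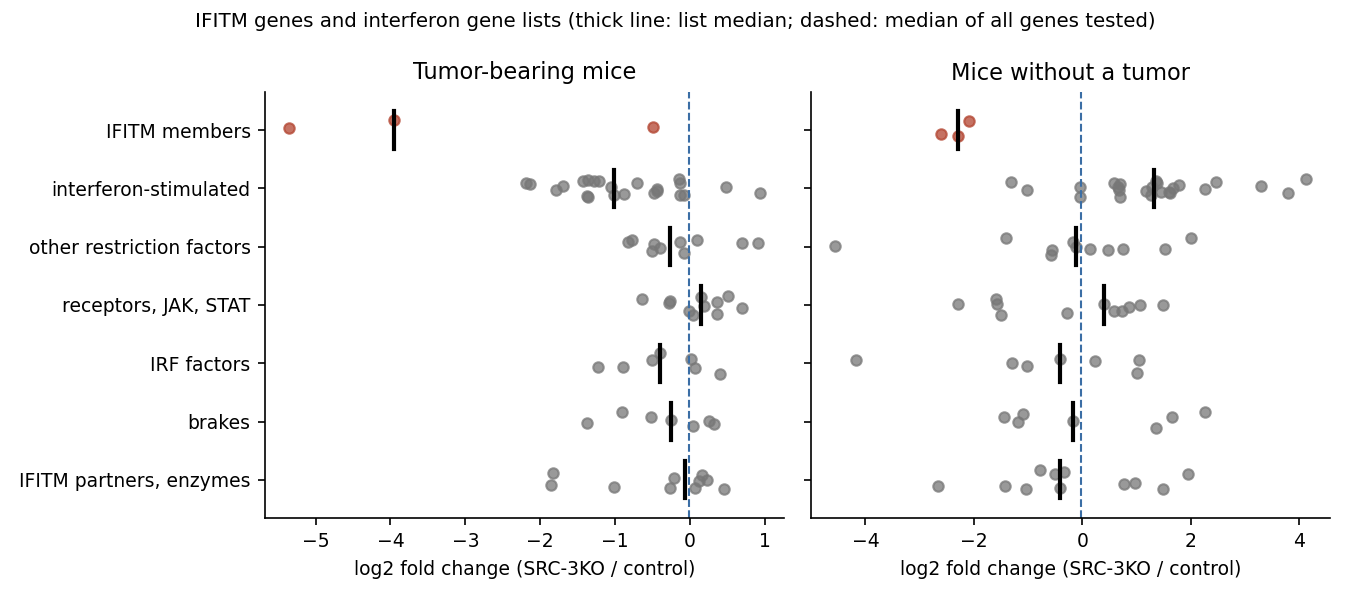
Log2 fold change of SRC-3KO over control for each tested gene (points) of the IFITM genes (red) and 6 interferon-related lists, with a tumor (left) and without (right). Thick lines are list medians and the dashed line the median of all genes tested, -0.02 in both. The interferon-stimulated list has a median of -1.02 with a tumor and 1.32 without, while the tested IFITM genes lie below 0 in both panels.

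Proteins that bind or modify IFITM proteins were measured as a list of 13 genes, of which 10 were tested with a tumor and 11 without, with 0 calls. Cd81, a tetraspanin that many cells express, had 151 and 139 FPKM in SRC-3KO Tregs with a tumor, against 123 and 90.3 FPKM in control Tregs. Cd9, another tetraspanin, had 13.1 and 7.47 FPKM in SRC-3KO Tregs with a tumor, against 19.8 and 75.2 FPKM in control Tregs. Without a tumor Cd9 had 159 and 122 CPM in SRC-3KO Tregs, against 26.6 and 53.6 CPM in control Tregs, in the other direction. Zdhhc20, an enzyme that palmitoylates IFITM3, had 109 and 94.7 CPM in SRC-3KO Tregs without a tumor, against 17.9 and 63.0 CPM in control Tregs. Nedd4, the ligase that ubiquitinates it, had 1.60 and 2.96 CPM in SRC-3KO Tregs, against 29.8 and 0.662 CPM in control Tregs.

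Some markers of other cell types moved with Ifitm1 and Ifitm3 in the tumor-bearing mice (the plot of marker sums). Of the plasma cell list, 4 of 7 genes were tested and limma called Jchain and Mzb1, calls that were lost with no filter on low values. Jchain, which joins secreted IgM and IgA, had 0 and 0.581 FPKM in SRC-3KO Tregs, against 43.5 and 61.7 FPKM in control Tregs. Mzb1, an antibody secretion chaperone, had 0.0491 and 0.507 FPKM in SRC-3KO Tregs, against 16.9 and 19.1 FPKM in control Tregs. Both followed Ifitm1, yet Tnfrsf17 (BCMA) was listed at 0 in all 4 libraries, and the list's sum, most of it Xbp1, was 262 and 233 FPKM in SRC-3KO Tregs, against 288 and 357 FPKM in control Tregs. Prdm1 (Blimp-1), a regulator of plasma cells that effector Tregs also express, lay the other way. It had 20.6 and 18.3 FPKM in SRC-3KO Tregs, against 9.75 and 10.52 FPKM in control Tregs, with a log2 difference of 0.88 (SE 0.19, adjusted p 0.164 by limma). The part of plasma cells in the values of Ifitm1 was not tested.

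Of the B cell list, 4 of 10 genes were tested, all 4 with both SRC-3KO libraries below both controls (24.9% of all genes), and the sum was 13.0 and 10.9 FPKM in SRC-3KO Tregs, against 36.6 and 28.7 FPKM in control Tregs. Cd79a, of the B cell receptor, was called with the filter on low values, with 0.395 and 0.308 FPKM in SRC-3KO Tregs, against 10.3 and 8.74 FPKM in control Tregs. Pax5, Ebf1 and Cr2 stayed under 0.1 FPKM in every tumor library. The part of B lineage cells in the values of Ifitm1 was not tested.

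With a tumor, Ifitm1, Ifitm2, Ifitm3 and Ifitm6 were each highest in control replicate 2, where the neutrophil and monocyte lists also had their highest sums. The controls differed by 21.3 times for Ifitm3, 4.08 times for Ifitm2 and 1.40 times for Ifitm1, and Ifitm6 was at 0 in control replicate 1. The neutrophil list summed to 1.69 and 0.241 FPKM in SRC-3KO Tregs, against 5.28 and 4135 FPKM in control Tregs, and the list of monocytes and macrophages to 18.8 and 18.9 FPKM in SRC-3KO Tregs, against 31.8 and 1681 FPKM in control Tregs. In control replicate 1, Ly6g, Camp, Csf3r, Csf1r, Cd14 and Fcgr1 were listed at 0 and Lyz2 had 0.404 FPKM, while Ifitm3 had 19.0 FPKM and Ifitm1 12.5 FPKM. Other markers of the same lists were higher in control replicate 1 than in both SRC-3KO libraries. Among them were the 3 of 12 neutrophil genes tested. These passed the filter on low values through the 2 controls alone, so the filter fixed their direction in advance. Retnlg had 0 FPKM in both SRC-3KO libraries, against 1.26 FPKM in control replicate 1, and S100a9 had 0.414 and 0 FPKM in SRC-3KO Tregs, against 1.55 FPKM in that control. Ly6c2, a monocyte marker, had 1.76 and 4.88 FPKM in SRC-3KO Tregs, against 17.5 and 245 FPKM in control Tregs. The chemokine receptor Ccr2 had 0.671 and 1.13 FPKM in SRC-3KO Tregs, against 2.26 and 3.59 FPKM in control Tregs. The difference of Ifitm3 without control replicate 2 was -3.18, as given above, and the part of myeloid cells in it was not tested.

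Treg markers lay the other way from Ifitm1 and Ifitm3 with a tumor. Of 10 such genes, all tested and none called, 8 had both SRC-3KO libraries above both controls and 0 below, beside 27.5% and 24.9% of all genes, with a median log2 difference of 0.68. Ikzf4 (Eos) had 46.5 and 45.6 FPKM in SRC-3KO Tregs, against 20.0 and 17.7 FPKM in control Tregs. Ikzf2 (Helios) had 56.6 and 43.0 FPKM in SRC-3KO Tregs, against 14.8 and 22.9 FPKM in control Tregs, and Ctla4 had 231 and 288 FPKM in SRC-3KO Tregs, against 151 and 136 FPKM in control Tregs. The list's sum, most of it Tnfrsf4 and Tnfrsf18, was 4200 and 4149 FPKM in SRC-3KO Tregs, against 4178 and 2927 FPKM in control Tregs.

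Some markers of NK and CD8 T cells and of conventional CD4 T cells were on the side of Ifitm1 and Ifitm3, and none was called. Both SRC-3KO libraries were below both controls for 4 of 5 and 4 of 7 tested genes (24.9% of all genes). They were above both for 1 and 0 (27.5% of all genes). Prf1 (perforin), which passed the filter through its controls alone, had 0.541 and 0.289 FPKM in SRC-3KO Tregs, against 2.22 and 3.29 FPKM in control Tregs. Cd8b1, a chain of the CD8 receptor, lay the other way, with 7.69 and 7.74 FPKM in SRC-3KO Tregs, against 4.67 and 6.16 FPKM in control Tregs. The part of these cell types in the values of the IFITM genes was not tested.

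Without a tumor, the neutrophil list summed to 0.0364 and 1.87 CPM in SRC-3KO Tregs, against 0.0792 and 334 CPM in control Tregs. Ifitm1 was highest in that control replicate 2. Ifitm3 had 29.1 CPM in control replicate 1, where the neutrophil list was near 0, and 25.7 CPM in control replicate 2. Monocyte and macrophage markers summed to 38.4 and 89.1 CPM in SRC-3KO Tregs without a tumor, against 14.1 and 72.9 CPM in control Tregs. Lyz2 alone had 66.6 CPM in SRC-3KO replicate 2, most of the sum in that library. B cell markers summed to 66.0 and 20.6 CPM in SRC-3KO Tregs, against 20.4 and 15.8 CPM in control Tregs. Cd79b had 38.7 CPM of this in SRC-3KO replicate 1. Both SRC-3KO libraries were below both controls for 2 of 7 conventional CD4 T cell genes tested and 1 of 4 dendritic cell genes. They were above both for 0 of either list, beside 21.0% below and 18.3% above over all genes. For monocyte and macrophage genes, 0 of 6 were below and 2 above. The part of other cell types in the values of Ifitm3 was not tested.

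**Figure D5:**
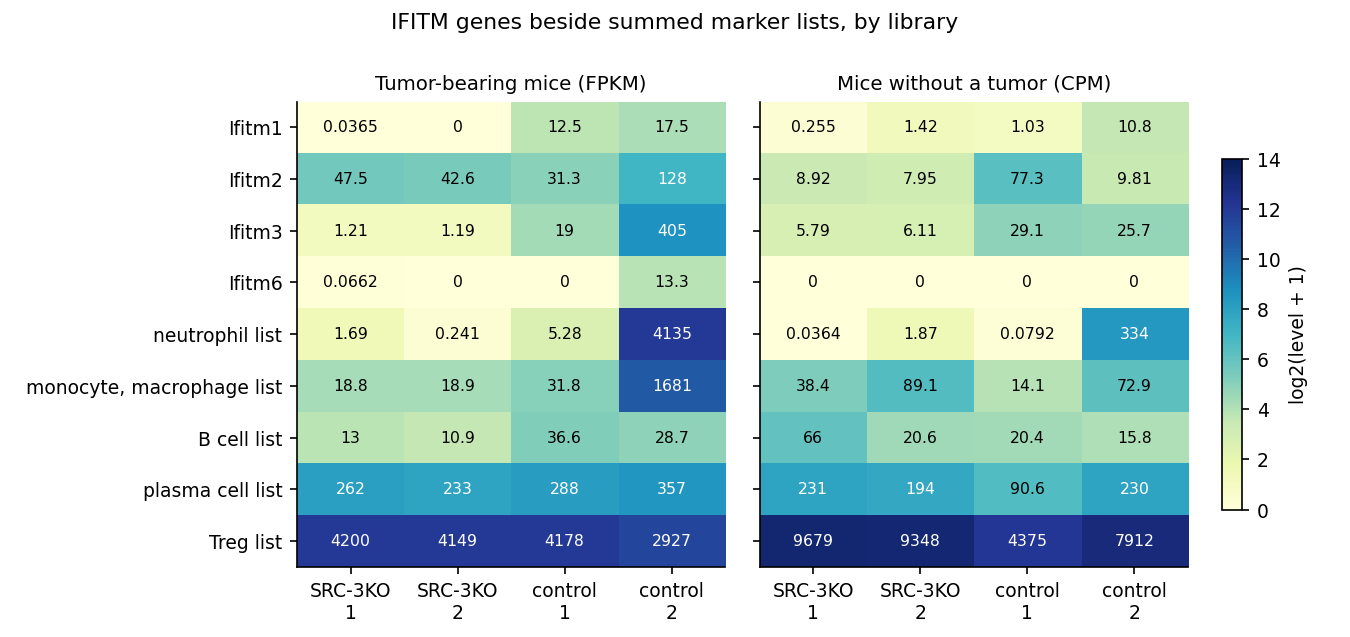
Levels of 4 IFITM genes and summed levels of 5 marker lists in each library, in FPKM with a tumor (left) and CPM without (right), with SRC-3KO left of control in each panel. Colour is log2(level + 1) and each cell prints its level. The neutrophil list stands out in control replicate 2 of both states, at 4135 FPKM and 334 CPM. With a tumor all 4 IFITM genes are highest in that library, and without one Ifitm1 is.

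The genes nearest in profile were found by the Euclidean distance between log2 values centred over the 4 libraries of a state, which describes likeness over 4 libraries and nothing more. With a tumor, Ifitm1 was nearest to Apoe, the lipid carrier of macrophages and other cells, at a distance of 0.30, where Ifitm1 itself stood 3.97 from a flat profile. Apoe had 1.39 and 1.48 FPKM in SRC-3KO Tregs, against 39.8 and 43.0 FPKM in control Tregs. Mzb1 and the immunoglobulin segments Igkj5, Ighv11-2 and Ighj4 came next. Ifitm3 was nearest to Slpi, a secreted protease inhibitor, which had 0 and 0.0539 FPKM in SRC-3KO Tregs, against 5.48 and 96.1 FPKM in control Tregs. H2-Ab1, a class II antigen presentation gene, the segments Iglj1 and Igkv16-104, and the Fc receptor chain Fcer1g followed. Fcer1g had 4.44 and 3.23 FPKM in SRC-3KO Tregs, against 13.9 and 473 FPKM in control Tregs. Ifitm2 was nearest to Gm45717, then to 2200002D01Rik, Tmem86a, Pik3r5 and Renbp.

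Without a tumor the nearest genes were others. Ifitm3 was nearest to Zfp609, a zinc finger gene, at a distance of 0.16, followed by Mief2, R3hdm2, Faah and Dennd1a. Zfp609 had 3.24 and 3.89 CPM in SRC-3KO Tregs, against 17.1 and 14.2 CPM in control Tregs. Ifitm2 was nearest to Cdk2ap1, then to Urm1, Gm12184, Bop1 and Ogfr. Cdk2ap1 had 92.7 and 81.1 CPM in SRC-3KO Tregs, against 799 and 103 CPM in control Tregs, high in control replicate 1 like Ifitm2. Ifitm1 was nearest to Efnb1, then to Syne4, Cacna1d, Cabcoco1 and Gm15638, each highest in control replicate 2. No gene was among the nearest 5 of the same member in both states.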

How the data were processed

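Tregs sorted from spleens were profiled with 2 libraries per group. Without a tumor, the authors deposited raw read counts of 55487 genes, made with Trim Galore, STAR and featureCounts on mm10, per the submitters' processing notes. With a tumor, the authors deposited FPKM values, made with StringTie per the column headers. The sources used here name no versions, strand setting or annotation release, so reads of overlapping and near-identical genes may be split in ways that cannot be checked. Positions and exon lengths came from GENCODE vM21 (GRCm38, the same build as mm10), which matched 55141 genes by ID, and promoter windows from RefSeq (GRCm38.p6).

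The members and gene lists were chosen with earlier results of these data known. Counts were tested with edgeR 4.0.16 (R 4.3.3) by its quasi-likelihood test after filterByExpr and TMM scaling (factors 0.916 to 1.09), at a common dispersion of 0.791. FPKM were tested with limma 3.58.1 with an intensity trend on log2(FPKM + 1), keeping those genes that reached 1 FPKM in 2 or more libraries. Each fit covered all genes of its table, with Benjamini-Hochberg adjustment and a threshold of 0.05. No gene was fitted across the 2 tables. CPM used the total counts, and CPM per kilobase the union of a gene's exons. No 2 libraries of a group held the same values. The other genes named were, of each list, those with the smallest unadjusted p (up to 3), relatives and neighbours of the cluster, defining markers, and the 5 genes nearest in profile. Markers listed at 0, Cd8b1, Derl3, Sdc1, Gm49369, Ctsd, Fcer1g and the pseudogenes were named after their values were seen.

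Alternatives tried were limma-voom, DESeq2 1.42.0, other scalings and filters, a pseudocount of 0.1, no trend, a replicate block and leaving out each library.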

Additional observations from a re-analysis of the deposited data

How the results depend on the processing

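The 3 tested IFITM genes kept a log2 fold change below 0 without a tumor under all 9 alternatives, with medians from -2.47 to -1.92, against -2.30. With a tumor their median was -3.96, moved to -6.08 with a pseudocount of 0.1, and ran from -4.51 to -1.34 over fits that left out a library. In 2 of those Ifitm1 fell below the filter, and without control replicate 2 Ifitm2 was above 0. Ifitm3 kept its direction under all 11 alternatives with a tumor. Genes called without a tumor, 0 by edgeR, numbered 70 with no filter, 87 by DESeq2 and from 0 to 7434 with a library left out, the highest without control replicate 2 and 1 without control replicate 1. Genes called with a tumor, 14 by limma, numbered 7 with a pseudocount of 0.1, 1 with no filter (higher in SRC-3KO, with 0 lower), 4 after TPM scaling, 3 after TPM scaling without antigen receptor segment genes, 72 with a replicate block and from 31 to 2510 with a library left out. The cause was not tested. Other scalings and limma-voom put the median of all genes, -0.02 in both states, between -0.15 and 0.24. The block used the P numbers of the tumor titles, whose same-numbered libraries deviated with a correlation of 0.0357. The sources used here do not say whether such libraries share an animal or day, and the correlation cannot decide it. No paired analysis was possible because the titles without a tumor carry no shared numbers. Depth limits Ifitm6 and Ifitm10 without a tumor, and is unknown with one.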
